A study of Mus musculus with 8 samples.

Results

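The genes described here are the receptors through which parathyroid hormone (PTH) and fibroblast growth factor 23 (FGF23) act on the kidney, with the scaffold proteins that hold phosphate cotransporters at the cell surface. They were taken by symbol: the PTH receptor gene Pth1r, the coreceptor gene Kl, the FGF receptor genes Fgfr1, Fgfr3 and Fgfr4, and the scaffold genes Pdzk1, Slc9a3r1 and Slc9a3r2. All 8 were found among the 46517 genes of the count tables, and all 8 passed the filter on low counts that left 15382 genes for testing. RNA of the whole kidney was sequenced as mRNA from 8 mice, with 1 library each. The 4 cKO mice were Xpr1lox/lox/Pax8-rtTA/LC1. In them doxycycline (DOX) turns on Cre in the renal tubule through the Pax8-rtTA activator, and Cre deletes the floxed Xpr1 gene there. The 4 Control mice were Xpr1lox/lox littermates without the transgenes. Both groups drank DOX at 2 mg/ml for 2 weeks from 8 weeks of age. Because the Control mice carried no rtTA or Cre, the presence of these transgenes and the loss of Xpr1 cannot be told apart. Libraries are named by mouse number, C for Control and KO for cKO. The p-values take these mice as the replicates.

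The kidney sets blood phosphate by how much it takes back from the filtrate. The sodium-phosphate cotransporters NaPi-IIa (gene Slc34a1) and NaPi-IIc (Slc34a3) do this in the brush border of the proximal tubule. PTH binds PTH1R, a G protein-coupled receptor, and FGF23 binds an FGF receptor together with alpha-Klotho, the product of Kl. Both hormones lead to removal of the cotransporters from the brush border. NHERF1 (Slc9a3r1), NHERF2 (Slc9a3r2) and NHERF3 (Pdzk1) carry PDZ domains, which bind the tails of membrane proteins and anchor them. Xpr1 encodes a phosphate exporter.

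Between 20366113 (KO16) and 26155030 (C13) reads per library fell in genes. Xpr1, the deleted gene, was at 80.2, 126, 108.5 and 103 CPM, the read count scaled to library size with edgeR's TMM factors, in C10, C11, C13 and C14. It was at 5.74, 26.5, 22.0 and 11.98 CPM in KO16, KO18, KO19 and KO20, so the libraries followed their labels. On the main axis of variation, which held 54.2% of the variance, Control libraries lay at −86.1 to −18.1 and cKO libraries at −11.6 to 112. This axis thus also ordered the groups. KO16 and KO20, the libraries with the least Xpr1, lay at its cKO end, and C11, with the most, at its Control end. The same libraries differed in how levels ran with transcript length. The slope of log2 CPM on log2 exonic length was taken in each library minus the mean slope of the 8 libraries. This centred slope was 0.28 in C11, −0.20 in KO20 and −0.47 in KO16. It was −0.08 to 0.04 in the other Control libraries and 0.17 to 0.23 in KO18 and KO19. Values without these 3 libraries are given beside the results that they moved most. In the libraries left, every cKO slope lay above every Control slope. Group and length lean thus cannot be told apart in that fit.

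Of the 8 genes, Pth1r and Pdzk1 were lower in cKO kidneys by edgeR's quasi-likelihood test at an adjusted p under 0.05, and 0 were higher. Across all genes tested, 14.1% passed in either direction, with 6.61% of all genes lower and 7.5% higher in cKO. The Control and cKO values of Pth1r and Pdzk1 did not overlap, as for 22.8% of all genes in either direction and 11.6% with the cKO libraries lower. All 8 estimates lay below zero, as did 49.55% of all genes tested. Their median log2 fold change was −0.74, against 0.01 over all genes. Among the 6 genes that did not pass, Fgfr1, Fgfr3, Slc9a3r1 and Slc9a3r2 turned above zero under at least 1 other choice of libraries or scaling.

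**Figure D1:**
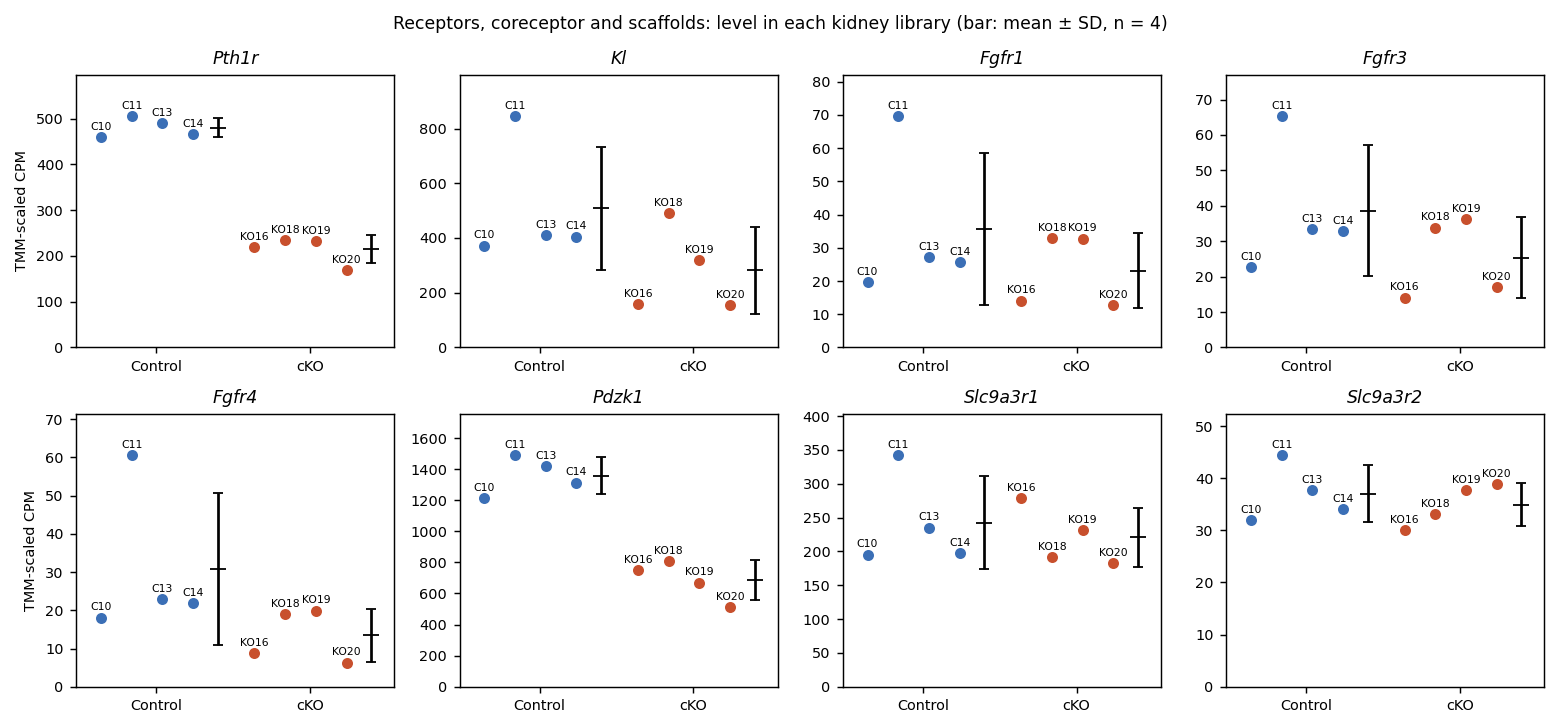
Level of each of the 8 genes in every library, in TMM-scaled CPM on a linear axis from 0; points are libraries, labelled by mouse, and bars are the mean ± SD of 4 libraries. The 2 groups are apart for Pth1r and Pdzk1, and C11 lies high for Kl, Fgfr1, Fgfr3 and Fgfr4.

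Pth1r (ENSMUSG00000032492), the PTH receptor gene, spans chr9:110722085-110747145 on the minus strand of GRCm38. Its level was 459, 505, 490.2 and 466 CPM in C10, C11, C13 and C14, and 219.7, 235, 233 and 169 CPM in KO16, KO18, KO19 and KO20. The 4 Control libraries lay close together, and the lowest of them was well above the highest cKO library. The mean was 480.3 ± 21.4 CPM in Control and 214 ± 30.8 CPM in cKO (SD, n = 4 each), a log2 fold change of −1.16 with a standard error (SE) of 0.19 (edgeR adjusted p = 0.0049). Without KO16, KO20 and C11 the log2 fold change of Pth1r was −1.05 (SE 0.10, edgeR adjusted p = 2.7e-05), where 57.8% of all genes passed. Pth1r passed under all 18 alternative settings tried, with log2 fold changes between −1.22 and −0.82. Its exons share 95 bases with Myl3 on the opposite strand.

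Markers of the proximal tubule, where Pth1r is expressed, moved in the same direction. Of 10 such markers, 8 were lower in cKO and 0 higher, with a median log2 fold change of −1.79. Their summed level was 11880 to 19020 CPM in Control and 2797 to 5713 CPM in cKO. In whole-kidney RNA, fewer cells of a type and less RNA per cell cannot be told apart. Within each library, log2 CPM of Pth1r minus the mean log2 CPM of these markers was −0.49, −1.22, −0.65 and −0.64 in Control and 0.13, −0.53, −0.12 and 0.43 in cKO. KO18 fell within the Control range and the other cKO libraries lay above it. The difference of 0.73 gave an exact two-sided permutation p of 0.0571, or 0.114 adjusted over the 8 ratios tested, and was 0.27 without KO16, KO20 and C11. Immune cell markers summed to 94.0 to 105 CPM in Control and 202.5 to 697 CPM in cKO, with 4 of 8 higher. Stromal markers summed to 148 to 229 CPM in Control and 279 to 413 CPM in cKO, with 2 of 6 higher. Among all genes tested, 6.61% were lower and 7.5% higher in cKO. The part of these cell types in the results was not tested.

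Pdzk1 (ENSMUSG00000038298), the gene of the scaffold NHERF3, spans chr3:96829284-96870926 on the plus strand. Its level was 1213, 1488, 1420 and 1314 CPM in C10, C11, C13 and C14, and 751, 808, 669 and 512 CPM in KO16, KO18, KO19 and KO20. The groups did not overlap, and KO20 was the lowest library. The mean was 1359 ± 121 CPM in Control and 685 ± 129 CPM in cKO (SD, n = 4 each), a log2 fold change of −0.99 (SE 0.22, edgeR adjusted p = 0.0174). Without KO16, KO20 and C11 it was −0.87 (SE 0.13, edgeR adjusted p = 0.00033), where 57.8% of all genes passed. The call was lost without C13, C14 or KO20, with edgeR adjusted p-values of 0.0682, 0.0574 and 0.0710. With library totals in place of TMM factors, Pdzk1 had a log2 fold change of −0.66 (edgeR adjusted p = 0.0822), where 19% of all genes passed, and that scaling moved the median of all genes to 0.34. Exons of Pdzk1 share 1333 bases with Gpr89 on the opposite strand, and whether the counting used strand is not given in the sources used here. Gpr89 was at 31.3 ± 2.85 CPM in Control and 42.1 ± 13.3 CPM in cKO (SD, n = 4 each), far under the level of Pdzk1.

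Promoter windows of Pth1r, Pdzk1 and Slc34a1 are shown. Each of these genes was lower in cKO, and 1 window of each holds the letters CAAAGTCC or the reverse complement. CAAAGTCC is the core of an HNF4-type motif. Pth1r has 3 windows in the table and Pdzk1 has 2, and their other windows do not hold these letters. Slc34a1 has 1 window. The window of Slc34a3, which was also lower in cKO with a log2 fold change of −4.25, does not hold these letters and is not shown. The windows come from RefSeq (GRCm38.p6), each of 300 bases, from 250 before to 50 after a transcript start, 5′ to 3′ on the gene's strand. Capitals mark the motif, which was chosen for display after its matches were seen.
Pth1r, chr9:110747096-110747395, minus strand: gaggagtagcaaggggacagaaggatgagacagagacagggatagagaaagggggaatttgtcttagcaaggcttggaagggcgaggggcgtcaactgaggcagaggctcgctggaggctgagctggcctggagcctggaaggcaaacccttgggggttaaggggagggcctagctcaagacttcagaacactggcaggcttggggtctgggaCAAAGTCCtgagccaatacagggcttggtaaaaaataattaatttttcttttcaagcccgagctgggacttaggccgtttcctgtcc
Pdzk1, chr3:96829815-96830114, plus strand: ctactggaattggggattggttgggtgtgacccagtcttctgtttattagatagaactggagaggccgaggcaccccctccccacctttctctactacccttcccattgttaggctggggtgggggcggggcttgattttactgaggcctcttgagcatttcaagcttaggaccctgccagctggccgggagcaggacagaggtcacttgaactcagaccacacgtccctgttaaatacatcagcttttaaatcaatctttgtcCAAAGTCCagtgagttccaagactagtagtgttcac
Slc34a1, chr13:55399398-55399697, plus strand: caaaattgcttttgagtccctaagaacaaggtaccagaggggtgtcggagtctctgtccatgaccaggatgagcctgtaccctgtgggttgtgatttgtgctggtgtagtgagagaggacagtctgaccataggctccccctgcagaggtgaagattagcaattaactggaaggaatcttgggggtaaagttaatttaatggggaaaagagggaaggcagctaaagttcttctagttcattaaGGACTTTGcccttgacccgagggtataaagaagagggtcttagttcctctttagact
The motif begins 37 bases before the start in Pth1r and 14 bases after it in Pdzk1. In Slc34a1 it lies on the reverse strand and begins 7 bases before the start. It was present on either strand in 1.42% of all 32851 promoter windows.

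Of the 8 genes, 7 matched the promoter table, with 12 windows in all, and Fgfr1 did not. CAAAGTCC was in 2 of these 12 windows, and its longer form CAAAGTCCA in 1 of them (0.475% of all windows). The GC box GGGCGG was in 9 windows (35.7% of all windows) and CCAAT in 5 (37.4%). The shorter site TGACG of the cyclic AMP response element, an element that PTH signalling acts through, was in 2 windows (20.8%), and the full element TGACGTCA, which contains it, in 0 (1.79%). The other motifs spelt out were each in 0 of the 12 windows: GTTAAT (7.1% of all windows), TATAAA (13.6%), CACGTG (7.15%) and CCGGAAGT (3.89%). A longer HNF1 motif and a direct repeat of nuclear receptor sites (DR1) were also in 0. All motifs were searched on both strands, and a match describes the letters alone.

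Kl (ENSMUSG00000058488), the gene of the coreceptor alpha-Klotho, spans chr5:150952607-150993817 on the plus strand. Its level was 372, 845, 412 and 405 CPM in C10, C11, C13 and C14, and 159, 492, 319 and 155 CPM in KO16, KO18, KO19 and KO20. C11 was well above the other Control libraries, KO18 lay above 3 of the 4 Control libraries, and KO16 and KO20 were the lowest of all. The mean was 508.5 ± 225 CPM in Control and 281 ± 160.0 CPM in cKO (SD, n = 4 each), a log2 fold change of −0.85 that did not pass (SE 0.44, edgeR adjusted p = 0.251). Without C11 the log2 fold change of Kl was −0.50 (edgeR adjusted p = 0.509), where 12.5% of all genes passed, and without KO16, KO20 and C11 it was −0.01 (SE 0.16, edgeR adjusted p = 0.978). With the length slope of each library as a covariate, Kl passed at −0.61 (SE 0.20, edgeR adjusted p = 0.0468), where 33.2% of all genes passed.

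Klotho is made mainly in the distal convoluted tubule, with a lower level in the proximal tubule. None of 5 distal convoluted tubule markers passed by edgeR, and 1 had an unadjusted p under 0.05. Their summed level was 1324 to 2785 CPM in Control and 857 to 1465 CPM in cKO. The difference between groups in the log2 ratio of Kl to these markers was −0.45 (exact two-sided permutation p = 0.314, 0.503 adjusted over 8 ratios) and turned to 0.28 without KO16, KO20 and C11.

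Fgfr1 (ENSMUSG00000031565; chr8:25513654-25575718, plus strand), whose product pairs with alpha-Klotho for FGF23, was at 19.7, 69.6, 27.3 and 25.8 CPM in C10, C11, C13 and C14, and at 14.1, 33.0, 32.8 and 12.8 CPM in KO16, KO18, KO19 and KO20. KO18 and KO19 lay above every Control library but C11. The mean was 35.6 ± 22.9 CPM in Control and 23.2 ± 11.2 CPM in cKO (SD, n = 4 each), a log2 fold change of −0.62 that did not pass (SE 0.48, edgeR adjusted p = 0.459). Without C11 it was −0.07 (edgeR adjusted p = 0.939). Without KO16, KO20 and C11 the direction of Fgfr1 turned, to a log2 fold change of 0.40 (SE 0.14, edgeR adjusted p = 0.0371), where 57.8% of all genes passed.

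Fgfr3 (ENSMUSG00000054252; chr5:33721674-33737068, plus strand), another FGF receptor gene of the tubule, was at 22.7, 65.3, 33.3 and 32.9 CPM in C10, C11, C13 and C14, and at 14.1, 33.8, 36.3 and 17.1 CPM in KO16, KO18, KO19 and KO20. The order of its libraries was much like that of Fgfr1. The mean was 38.6 ± 18.5 CPM in Control and 25.3 ± 11.4 CPM in cKO (SD, n = 4 each), a log2 fold change of −0.61 that did not pass (SE 0.41, edgeR adjusted p = 0.394). It was −0.23 without C11 (edgeR adjusted p = 0.755) and 0.20 without KO16, KO20 and C11 (edgeR adjusted p = 0.308). Exons of Fgfr3 share 998 bases with G630022F23Rik on the opposite strand, and those of Fgfr1 share 164 with Gm16159.

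Fgfr4 (ENSMUSG00000005320; chr13:55152640-55168759, plus strand) was the FGF receptor gene with the highest mean level per length in each group, though Fgfr3 was above it in KO20. Length here is that of all annotated exons, 3542 bases for Fgfr4, 7158 for Fgfr3 and 9875 for Fgfr1. In CPM, not divided by length, the mean of Fgfr4 was below those of Fgfr1 and Fgfr3 in both groups. Fgfr4 was at 18.1, 60.5, 22.9 and 21.9 CPM in C10, C11, C13 and C14. It was at 8.87, 18.9, 19.9 and 6.33 CPM in KO16, KO18, KO19 and KO20. KO18 and KO19 lay near the lowest Control library, and KO16 and KO20 were well under it. The mean was 30.9 ± 19.9 CPM in Control and 13.5 ± 6.92 CPM in cKO (SD, n = 4 each), a log2 fold change of −1.19 that did not pass (SE 0.50, edgeR adjusted p = 0.158). This estimate was as large as that of Pth1r, with a wider SE. It was −0.63 without C11 (edgeR adjusted p = 0.375) and −0.15 without KO16, KO20 and C11 (SE 0.13, edgeR adjusted p = 0.359).

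**Figure D2:**
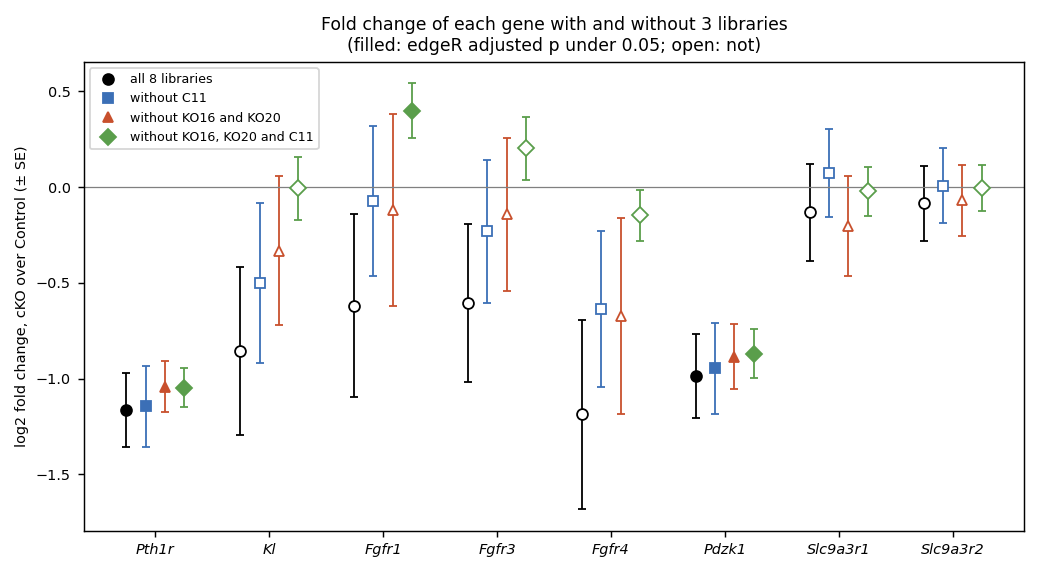
Log2 fold change of each gene, cKO over Control, with its SE, in all 8 libraries and without C11, without KO16 and KO20, and without all 3; filled symbols have an edgeR adjusted p under 0.05. Pth1r and Pdzk1 stay near −1 in the 4 fits shown, while Kl moves from −0.85 to −0.01 and Fgfr1 from −0.62 to 0.40. In the fit without all 3, group and length slope cannot be told apart.

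The makeup of FGF receptor transcripts was compared within each library, where the scaling of the library drops out. The lean of a library to transcript length does not drop out, because these genes differ in exon length. The size of each share also rests on dividing by the length of all annotated exons. As a share of the summed CPM per kilobase of Fgfr1, Fgfr2, Fgfr3 and Fgfr4, Fgfr4 held 44.8% ± 2.73 in Control and 34.3% ± 4.69 in cKO (SD, n = 4 each). It ranged from 42.4% to 48.6% in Control and from 27.6% to 38.3% in cKO, without overlap. The share of Fgfr1 was 18.5% ± 1.10 in Control and 21.3% ± 0.955 in cKO, that of Fgfr3 29.1% ± 2.69 and 32.7% ± 2.93, and that of Fgfr2 7.58% ± 1.76 and 11.7% ± 2.70. The share of Fgfr2 did not overlap either, at 5.46% to 9.65% in Control and 9.76% to 15.6% in cKO. The ranges of Fgfr1 and of Fgfr3 overlapped between groups. Of all single genes tested, 22.8% did not overlap between groups. How often shares or ratios of other genes do so was not tested.

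The log2 ratio of Fgfr1 to Fgfr4 was 0.12, 0.20, 0.25 and 0.24 in C10, C11, C13 and C14, and 0.66, 0.80, 0.71 and 1.005 in KO16, KO18, KO19 and KO20. All cKO libraries lay above all Control libraries, C11 and KO16 included, and the difference was 0.59. The log2 ratio of Fgfr3 to Fgfr4 differed by 0.55, also without overlap. Both had an exact two-sided permutation p of 0.0286, the smallest that 4 against 4 can give, and 0.0762 adjusted over 8 ratios, which does not pass. At least 5 of the 8 ratios would have had to reach that smallest p for any to pass. Without KO16, KO20 and C11 the differences were 0.55 and 0.36, with exact permutation p-values of 0.1, the smallest that 3 against 2 can give. With the length trend of each library removed they were 0.78 and 0.68. Both then had an exact permutation p of 0.0571 adjusted over 8 ratios, which does not pass. The log2 ratio of Fgfr1 to Fgfr3 differed by 0.04 (exact permutation p = 0.800), and that of Pth1r to Kl by −0.23 (exact permutation p = 0.629). Without KO16, KO20 and C11 these differences were 0.19 and −1.01.

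**Figure D3:**
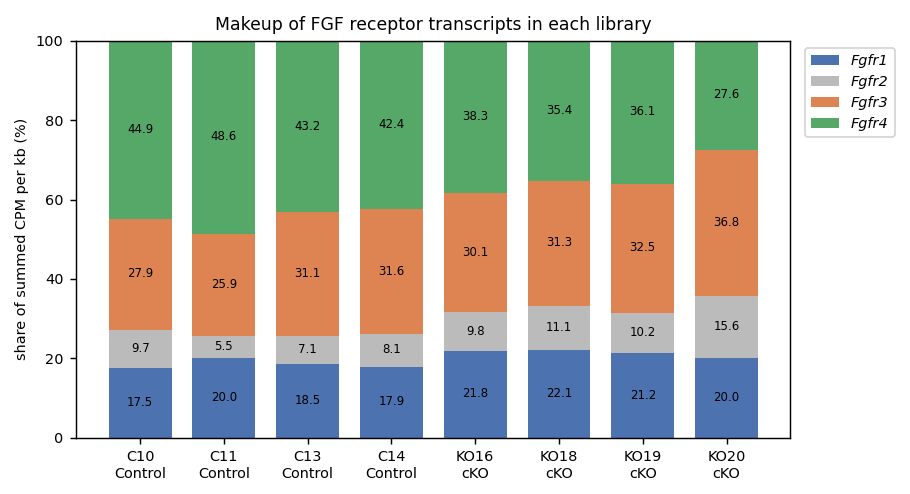
Share of each FGF receptor gene in the summed CPM per kilobase of all annotated exons of the 4 genes, in percent, as stacked bars for the 8 libraries. The top segment, Fgfr4, is 42.4% to 48.6% in the Control libraries and 27.6% to 38.3% in the cKO libraries.

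Slc9a3r1 (ENSMUSG00000020733; chr11:115163341-115181181, plus strand), the gene of NHERF1, was at 195, 342, 235 and 197 CPM in C10, C11, C13 and C14, and at 279, 192, 231 and 183 CPM in KO16, KO18, KO19 and KO20. The groups overlapped throughout, and KO16 was the highest cKO library. The mean was 242 ± 68.8 CPM in Control and 221 ± 43.6 CPM in cKO (SD, n = 4 each), a log2 fold change of −0.13 (SE 0.25, edgeR adjusted p = 0.795). The estimate was 0.17 with library totals, 0.02 with upper-quartile factors, 0.07 without C11 and 0.04 without KO20.

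Slc9a3r2 (ENSMUSG00000002504; chr17:24639286-24650327, minus strand), the gene of NHERF2, was at 31.9, 44.4, 37.8 and 34.1 CPM in C10, C11, C13 and C14, and at 30.0, 33.2, 37.8 and 38.8 CPM in KO16, KO18, KO19 and KO20. These were the most even values of the 8 genes over all libraries. The mean was 37.0 ± 5.44 CPM in Control and 34.9 ± 4.09 CPM in cKO (SD, n = 4 each), a log2 fold change of −0.08 (SE 0.20, edgeR adjusted p = 0.834). It was 0.25 with library totals, 0.05 with upper-quartile factors and 0.01 without C11.

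The scaffolds thus differed from each other in their estimates, and the log2 ratio of Pdzk1 to Slc9a3r1 tested this within libraries. It was 2.64, 2.12, 2.59 and 2.74 in C10, C11, C13 and C14, and 1.43, 2.07, 1.53 and 1.48 in KO16, KO18, KO19 and KO20. The groups did not overlap, although C11 and KO18 came close. The difference was −0.89 (exact two-sided permutation p = 0.0286, 0.0762 adjusted over 8 ratios), and −0.85 without KO16, KO20 and C11. The log2 ratio of Slc9a3r1 to Slc9a3r2 differed by −0.03 (exact permutation p = 0.857).

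Levels of different genes were compared as CPM per kilobase of all annotated exons, so the order rests on that length. In Control kidneys Pdzk1 was the highest at 382 ± 34.0 CPM per kilobase, followed by Pth1r at 164 ± 7.31, Slc9a3r1 at 126 ± 35.8 and Kl at 54.5 ± 24.1 (SD, n = 4). Slc9a3r2 followed at 14 ± 2.06, then Fgfr4 at 8.71 ± 5.62, Fgfr3 at 5.39 ± 2.58 and Fgfr1 at 3.61 ± 2.32 CPM per kilobase. The ranges of Pth1r and Slc9a3r1 overlapped, and so did those of each neighbouring pair from Slc9a3r2 to Fgfr1. In cKO kidneys Slc9a3r1, at 115 ± 22.6 CPM per kilobase, stood above Pth1r at 73.3 ± 10.5 in 4 of 4 libraries, whereas in Control Pth1r was the higher in 3 of 4. Pdzk1 stayed the highest in cKO at 193 ± 36.2 CPM per kilobase, with a range that overlapped that of Slc9a3r1.

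The 8 genes fell into different patterns over the libraries. Kl, Fgfr1, Fgfr3 and Fgfr4 were highest in C11, at 1.178 to 1.74 above their own means in log2 CPM, and lowest in KO16 or KO20. Kl, Fgfr1 and Fgfr3 have 7158 to 9875 bases of exons, whereas Fgfr4 has 3542, close to the 3556 of Pdzk1. Pth1r and Pdzk1 divided by group, with all Control libraries above the mean of each gene and all cKO libraries below it. With the length slope of each library as a covariate, log2 fold changes were −0.61 for Kl, −0.26 for Fgfr1, −0.32 for Fgfr3 and −0.85 for Fgfr4. The part of transcript length in these patterns was not tested.

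**Figure D4:**
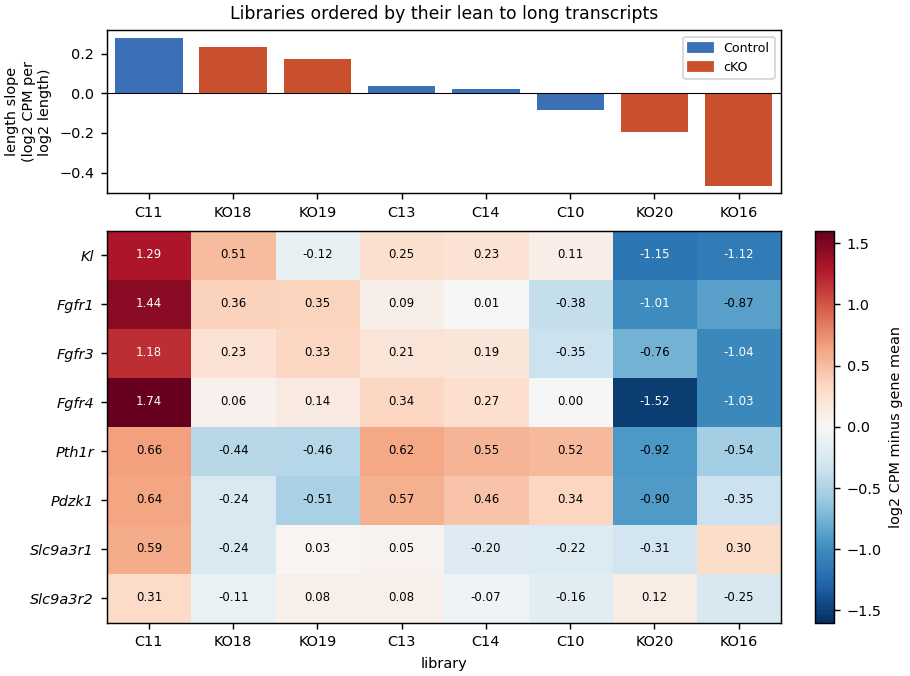
Top, slope of log2 CPM on log2 exonic length in each library minus the mean slope of the 8 libraries, with libraries ordered by it. Bottom, log2 CPM of each gene minus its mean over the 8 libraries. Kl and the FGF receptor genes are highest in C11 (slope 0.28) and lowest in KO20 and KO16 (slopes −0.20 and −0.47), while Pth1r and Pdzk1 divide by group.

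Genes with the most similar profiles were ranked by the root-mean-square difference of centred log2 CPM over the 8 libraries, among 9112 protein-coding genes of at least 10 CPM. The nearest to Pth1r were Sfxn1 (0.0695), Cat, the gene of catalase (0.0739), and Fbxo7 (0.0742). Pdzk1 was the 8th nearest gene to Pth1r, at 0.123, and Pth1r was 12th for Pdzk1. Slc34a1 was far from both, 7648th for Pth1r at 1.006 and 8126th for Pdzk1 at 1.055. Nearest to Pdzk1 itself were Mep1a (0.0954), the gene of a brush border protease, the organic cation exporter gene Slc47a1 (0.101) and Idh2 (0.102).

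Kl was nearest to Slc4a1 (0.141), Atp2a2 (0.142) and Cpt1a (0.144), none of which passed the test between groups. Fgfr1 was nearest to Pigt (0.0662), Pigo (0.0743) and Als2cl (0.0808), and Fgfr3 to Smarcd1 (0.0687), Acvr1b (0.0880) and Atrnl1 (0.101). Fgfr3 was 69th for Fgfr1, and Fgfr1 was 57th for Fgfr3. Fgfr4 was nearest to Mlxipl (0.105), Slc5a6 (0.132) and Xylb (0.158), and Kl was 72nd. Slc9a3r1 was nearest to Fads3 (0.125), Stxbp2 (0.127) and Samd1 (0.135), and Slc9a3r2 to Tfg (0.0779), Rnf187 (0.0793) and Mief2 (0.0938). These ranks describe 8 libraries and include the difference between groups.

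Downstream of the PTH receptor, genes of G proteins, adenylyl cyclases, protein kinases A and C, arrestins, receptor kinases and phosphodiesterases were read from a list of 37. Of these, 34 were tested and 0 passed edgeR's adjusted p, with 4 at an unadjusted p under 0.05. DESeq2 called 2, and 15 passed without KO16, KO20 and C11, where 57.8% of all genes did. Leaving out C11 or KO16 gave 2 calls each. The median log2 fold change of the list was −0.01. The smallest p-values belonged to Arrb2, the gene of beta-arrestin 2, at 10.7 ± 1.74 CPM in Control and 17.97 ± 3.46 CPM in cKO (SD, n = 4 each, log2 fold change 0.74, edgeR adjusted p = 0.0582), and to the protein kinase gene Prkcz, at 64.8 ± 6.95 and 45.2 ± 6.55 CPM (−0.52, edgeR adjusted p = 0.113). Without C11, Arrb2 passed at 0.84 (edgeR adjusted p = 0.0479), and without KO16 and KO20 it was 0.48 (edgeR adjusted p = 0.148). Without all 3 libraries Arrb2 was 0.55 and Prkcz −0.32, both past the threshold (edgeR adjusted p = 0.0061 and 0.0301). The genes of the hormones Pth and Pthlh, and Pth2r, were too low to be tested.

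Of 29 genes of FGF ligands, further receptors and the RAS-MAPK cascade, 26 were tested, 2 were higher and 1 lower in cKO, and the median log2 fold change was −0.07. The 3 calls are 11.5% of the list, near the 14.1% of all genes. Fgf7, a ligand made by stromal cells, had 6 to 9 reads per library in Control and 20 to 69 in cKO, and was at 0.349 ± 0.0454 and 1.94 ± 0.676 CPM (log2 fold change 2.46, SE 0.35, edgeR adjusted p = 0.0024). The kinase gene Mapk3 (ERK1) was at 68.2 ± 2.68 CPM in Control and 141 ± 45.4 CPM in cKO (1.04, edgeR adjusted p = 0.0226). Its call was lost without C10, C13, C14 or KO20, with edgeR adjusted p-values of 0.0632, 0.0861, 0.0788 and 0.0706. KO16 and KO20 were the highest libraries for Mapk3, at 199 and 154 CPM against 105 and 104 CPM in KO18 and KO19. Its log2 fold change was 0.61 without KO16 and KO20 (edgeR adjusted p = 0.0182). Without KO16, KO20 and C11 it was 0.57 (edgeR adjusted p = 0.00086), where 57.8% of all genes passed. The adaptor gene Frs3 was at 12.8 ± 5.14 CPM in Control and 5.94 ± 0.769 CPM in cKO (−1.11, edgeR adjusted p = 0.0332). Its call was lost without C10, C14, KO18, KO19 or KO20, at edgeR adjusted p-values of 0.0547, 0.0653, 0.0732, 0.0617 and 0.116. It was also lost without KO16 and KO20 (−1.15, edgeR adjusted p = 0.0820). C11 was high for Frs3, at 20.4 CPM against 9.21 to 10.9 CPM in the other Control libraries. Without KO16, KO20 and C11 the log2 fold change of Frs3 was −0.86 (edgeR adjusted p = 0.0019), where 57.8% of all genes passed. Leaving out C10, C14 or KO20 left 1 call in this list. Fgf23, Fgf21 and Klb were too low to be tested, and Fgf23 had 0 reads.

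Among 15 genes that FGF signalling is known to induce, all tested, 2 were lower and 1 higher, with a median log2 fold change of −0.16. The 3 calls are 20% of the list, against 14.1% of all genes. Etv1, which encodes an ETS transcription factor, was at 21.2 ± 2.70 CPM in Control and 7.61 ± 3.16 CPM in cKO (−1.47, SE 0.33, edgeR adjusted p = 0.0190), and without C14 its adjusted p was 0.0530. Etv5, of the same family, was at 13.5 ± 8.08 and 4.22 ± 0.924 CPM (−1.67, SE 0.39, edgeR adjusted p = 0.0213), and without KO20 its adjusted p was 0.0710. C11 was high for Etv5, at 25.5 CPM against 8.65 to 10.6 CPM in the other Control libraries. The log2 fold change of Etv5 was −1.43 without KO16 and KO20, where the call was lost (edgeR adjusted p = 0.103). Without KO16, KO20 and C11 it was −0.95 (edgeR adjusted p = 0.00055), where 57.8% of all genes passed. Dusp5, the gene of a phosphatase that acts on ERK, was at 1.59 ± 0.265 and 3.54 ± 1.37 CPM (1.15, edgeR adjusted p = 0.0401). Its call was lost without C10, C11, C13, C14, KO18 or KO20, at edgeR adjusted p-values of 0.0618 to 0.130. Leaving out C14 or KO20 left 1 call in this list.

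**Figure D5:**
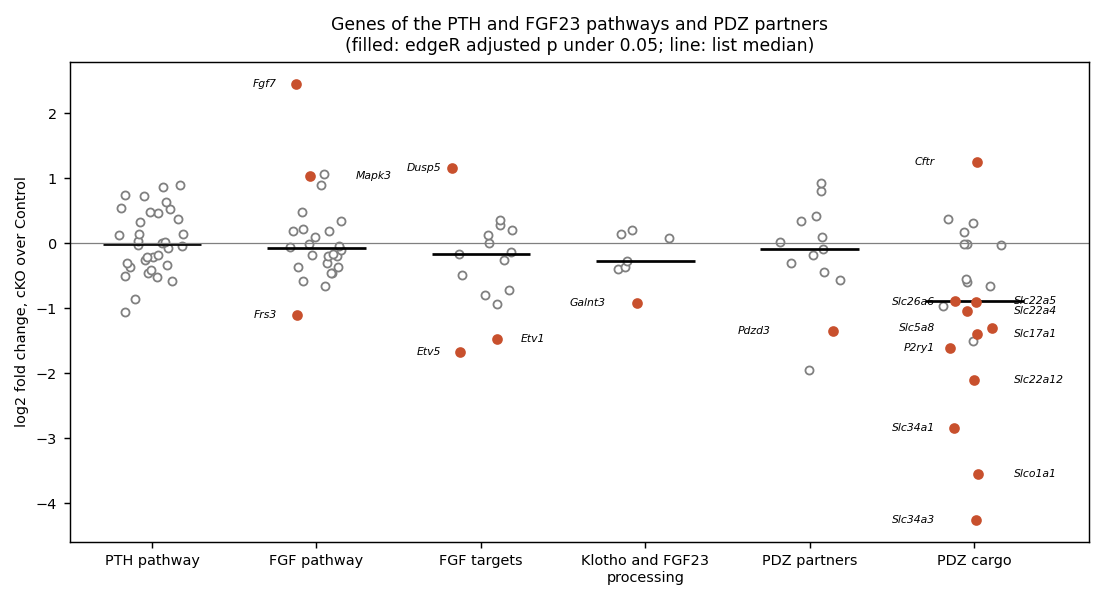
Log2 fold change, cKO over Control, of each tested gene in 6 lists around the receptors and scaffolds; filled points have an edgeR adjusted p under 0.05 and are named, and lines are list medians. The PDZ cargo list holds 10 lower genes of 22 and has a median of −0.89, and 0 genes of the PTH pathway list are filled.

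Of 9 genes that cut Klotho or process FGF23, 7 were tested and only Galnt3 passed, which is 14.3% of the list against 14.1% of all genes. It encodes the enzyme that glycosylates FGF23 and so protects it from cleavage, and was at 72.4 ± 3.93 CPM in Control and 38.3 ± 4.62 CPM in cKO (SD, n = 4 each, log2 fold change −0.92, SE 0.18, edgeR adjusted p = 0.01004). With library totals in place of TMM factors its adjusted p was 0.107. Phex and Dmp1 were too low to be tested.

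Of 13 genes of other PDZ proteins and of proteins that bind the NHERF scaffolds, 1 passed, or 7.69% of the list against 14.1% of all genes. Pdzd3, which encodes NHERF4, the remaining member of the NHERF family, was at 97.2 ± 16.8 CPM in Control and 38.1 ± 8.47 CPM in cKO (SD, n = 4 each, −1.35, SE 0.23, edgeR adjusted p = 0.0058). It passed under all 18 alternative settings. Without C11 the list had 2 calls.

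Membrane proteins bound by the NHERF scaffolds made up the list with the largest share of calls among the 6. Of 22 tested genes of 23, 10 were lower and 1 higher in cKO, with a median log2 fold change of −0.89. The 11 calls are 50% of the list, against 14.1% of all genes. Over all genes 6.61% were lower and 7.5% higher, with a median of 0.01. Without KO16, KO20 and C11, 11 were lower and 5 higher, where 57.8% of all genes passed. Both phosphate cotransporter genes were among the lower ones. Slc34a1 was at 2125, 6768, 2856 and 2537 CPM in C10, C11, C13 and C14, and at 418, 866, 492 and 222.5 CPM in KO16, KO18, KO19 and KO20 (log2 fold change −2.84, edgeR adjusted p = 0.0074). Slc34a3 was at 49.2, 67.7, 44.2 and 51.5 CPM in Control and 2.44, 6.46, 1.33 and 0.844 CPM in cKO (−4.25, SE 0.61, edgeR adjusted p = 0.0024). Neither overlapped between groups.

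The organic anion transporter gene Slco1a1 was at 1128 ± 286 CPM in Control and 96.6 ± 27.1 CPM in cKO (SD, n = 4 each, log2 fold change −3.54, edgeR adjusted p = 0.00043). The urate transporter gene Slc22a12 was at 2035 ± 449 and 475.5 ± 101 CPM (−2.10, edgeR adjusted p = 0.0015), and the purinergic receptor gene P2ry1 at 5.61 ± 1.26 and 1.82 ± 0.422 CPM (−1.61, edgeR adjusted p = 0.0055). The higher gene, named here after its values were seen, was the chloride channel gene Cftr (1.25, edgeR adjusted p = 0.0235), and the list had 0 higher genes without C10, C13, C14, KO18 or KO19. Without C13 or KO20 the list had 7 calls in place of 11. Most of these cargo genes are proximal tubule genes, and the proximal tubule markers given beside Pth1r fell with them. Their part in these differences was not tested.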

How the data were processed

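Whole-kidney mRNA of 4 Control and 4 cKO mice was sequenced from stranded libraries, per the labels' protocols. The authors deposited whole-number counts per Ensembl gene, 1 file for each mouse. Per the submitters' processing notes, cutadapt 1.3, STAR 2.4.0g and HTSeq 0.6.1 were used with build GRCm38; which annotation release and strand setting the counting used is not given in the sources used here. Lines that name no gene held 39.7% to 56.2% of each file and were left out. GENCODE vM21 supplied gene names, coordinates and exon lengths for 46005 of 46517 identifiers.

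Counts were tested with edgeR 4.0.16 in R 4.3.3 (TMM factors, filterByExpr with a minimum count of 10 and minimum total of 15, quasi-likelihood F test, Benjamini-Hochberg adjustment over all 15382 genes, threshold 0.05), after a test on simulated data. CPM are TMM-scaled, and log2 CPM used a prior count of 2. An SE is the log2 fold change divided by the root of F. The biological coefficient of variation was 0.386, and no pair of replicates looked like the same library. Ratios were tested with exact permutation over 70 arrangements. Alternatives were scaling by RLE, by the upper quartile or by library totals, 2 other filters, limma 3.58.1 (voom), DESeq2 1.42.0, the length slope as a covariate, and leaving out libraries.

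The genes and lists were chosen with earlier results of these data known. Named were the 8 genes, up to 4 called genes of each list by smallest p (otherwise 2), Xpr1, Slc34a1, Slc34a3, and the 3 nearest profiles per gene. Gpr89 was added after its overlap with Pdzk1 was seen. The labels give no batch, litter or pairing.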

Additional observations from a re-analysis of the deposited data

Results flagged for a closer look

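In each group of 4 libraries the highest or lowest value was compared with its nearest neighbour, as the gap divided by the group's whole range, against Dixon's critical value of 0.829. Of 16 such groups (8 genes in 2 groups), 3 had a library that stood apart, and in all 3 it was C11. Chance gives this in about 1 group in 20, and the 3 share a library. Kl was at 845 CPM in C11 against 372 to 412 CPM in the other Control libraries, a gap of 0.917 of the range. Fgfr1 was at 69.6 CPM in C11 against 19.7 to 27.3 CPM, a gap of 0.848. Fgfr4 was at 60.5 CPM in C11 against 18.1 to 22.9 CPM, a gap of 0.886.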

How the results depend on the processing

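The members had at least 150 reads in every library, and what limits their calls was not tested. The count over all genes was 2170, and became 5111 with the length slope as a covariate and 9175 without KO16, KO20 and C11; leaving out 1 library each gave 1106 to 2697, with 1436 without C10, 1106 without C13, 1200 without C14 and 1311 without KO20. Library totals moved the median over all genes tested, in log2, from 0.01 to 0.34, and the calls from 1016 lower and 1154 higher to 548 lower and 2374 higher; upper-quartile factors moved the median to 0.14, with 826 lower and 1460 higher. Of the 8 members, 2 passed, against 1 with library totals and 1 to 2 with 1 library left out. The sign of Fgfr1 turned to 0.40 without KO16, KO20 and C11. For the PTH list the 0 calls became 1 with upper-quartile factors, 5 with library totals, 1 with no filter, 7 with the length slope, 2 with DESeq2, 1 without KO16 and KO20, 15 without KO16, KO20 and C11, and 0 to 2 with 1 library left out. For the FGF pathway list the 3 calls became 5 with library totals, 9 with the length slope, 13 without KO16, KO20 and C11, and 1 to 4 with 1 library left out. For FGF targets the 3 calls became 1 with library totals, 6 with the length slope, 6 without KO16, KO20 and C11, and 1 to 3 with 1 library left out. For Klotho and FGF23 processing the 1 call became 0 with library totals, 2 with the length slope, 4 without KO16, KO20 and C11, and stayed at 1 with 1 library left out. For PDZ partners the 1 call became 2 with upper-quartile factors, 3 with the length slope, 3 with DESeq2, 2 without KO16 and KO20, 6 without KO16, KO20 and C11, and 1 to 2 with 1 library left out. For PDZ cargo the 11 calls became 7 with library totals, 16 without KO16, KO20 and C11 (11 lower and 5 higher), and 7 to 11 with 1 library left out. The ratios gave 0 calls under each alternative that could pass. The cause of these changes was not tested. No paired analysis was possible because the labels give no litter or pairing of the mice.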
